A study of Arabidopsis thaliana with 12 samples.

Results

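The GH9 endoglucanases are the plant members of glycoside hydrolase family 9, enzymes that cut the backbone of beta-linked glucans such as cellulose. Their transcripts were followed for 10 days in a suspension culture of Arabidopsis thaliana (Col-0) treated so that cells turn into tracheary elements, the water-conducting cells of xylem. The members are the probe sets that the annotation of the Affymetrix ATH1 array gives to 1 gene whose symbol begins with GH9. There were 15 of them among 22746 probe sets, each read as a set of short probes. They were GH9A3, GH9A4, GH9B5, GH9B6, GH9B7, GH9B8, GH9B11, GH9B12, GH9B13, GH9B16, GH9B17, GH9B18, GH9C1, GH9C2 and GH9C3. A further 2 probe sets are shared by a pair of GH9 genes each (GH9B9 with GH9B10, and GH9B14 with GH9B15) and were left out of the members.

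Arrays from 6 days were used, 2 per day, 12 in all. The later groups were cells collected on days 2, 4, 6, 8 and 10, for which 7.5 ml of a 7-day-old culture had been moved into 42.5 ml of a new medium holding the steroid hormone brassinolide at 1 uM and 10 mM boric acid. They were compared with untreated cells at day 0. Every sample's labels list the same pair of media built on MS salts and 3% sucrose, one with 1 ug/ml of the synthetic auxin 2,4-dichlorphenoxyacetic acid and the other with brassinolide and boric acid. They do not say which one the cells were in when collected at day 0. The labelled temperature was 27 C on days 2, 6 and 10 and 22 C on days 0, 4 and 8. All 5 comparisons with day 0 share its 2 arrays, and hormone, boric acid, fresh medium and culture age cannot be told apart in them. Whether both arrays of a day are from separate cultures is not in the labels, so the p-values reflect a spread that may be technical.

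GH9 enzymes fall into class A, anchored in a membrane, class B, secreted, and class C, secreted with an added carbohydrate-binding module. The best known class A enzyme of Arabidopsis, KORRIGAN (GH9A1), is needed for cellulose synthesis in growing walls and in the secondary walls of xylem. Endoglucanases are therefore of interest in cells that first expand and then lay down a patterned, cellulose-rich wall. The RefSeq gene table (assembly TAIR10.1) names 24 Arabidopsis genes GH9 by symbol or synonym. Of these, 15 have a probe set of their own here and 4 share one. The other 5, among them KORRIGAN, have none listed in the annotation and were not analysed here.

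Of the 15 members, 6 were bright enough to test: GH9A3 of class A, GH9B5, GH9B7, GH9B17 and GH9B18 of class B, and GH9C2 of class C. The limit was the 40th percentile of each array, a signal between 17.2 and 22.1. A probe set below it is called dim here and has only a bound. Testing needed both arrays of at least 1 day at or above the limit. GH9A3, GH9B5, GH9B7 and GH9C2 lay above it on all 12 arrays. GH9B17 passed only through days 6 and 8, and GH9B18 only through days 6 and 10, so they could be tested only because they were high on those days.

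The other 9 members were never above the limit on both arrays of a day. GH9A4, GH9B6, GH9B8, GH9B11, GH9B12, GH9B16 and GH9C3, 7 in all, were below it on every array. GH9B13 reached 25.2 on 1 array of day 2, with 17.0 on the other. GH9C1, a class C enzyme, had 22.8 on 1 array of day 4 and 19.1 on the other. Signals of the 9 ran between 0.182 and 25.2. A signal below the limit does not show that a gene is silent. Both shared probe sets stayed below the limit on every array, between 0.621 and 8.84.

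**Figure D1:**
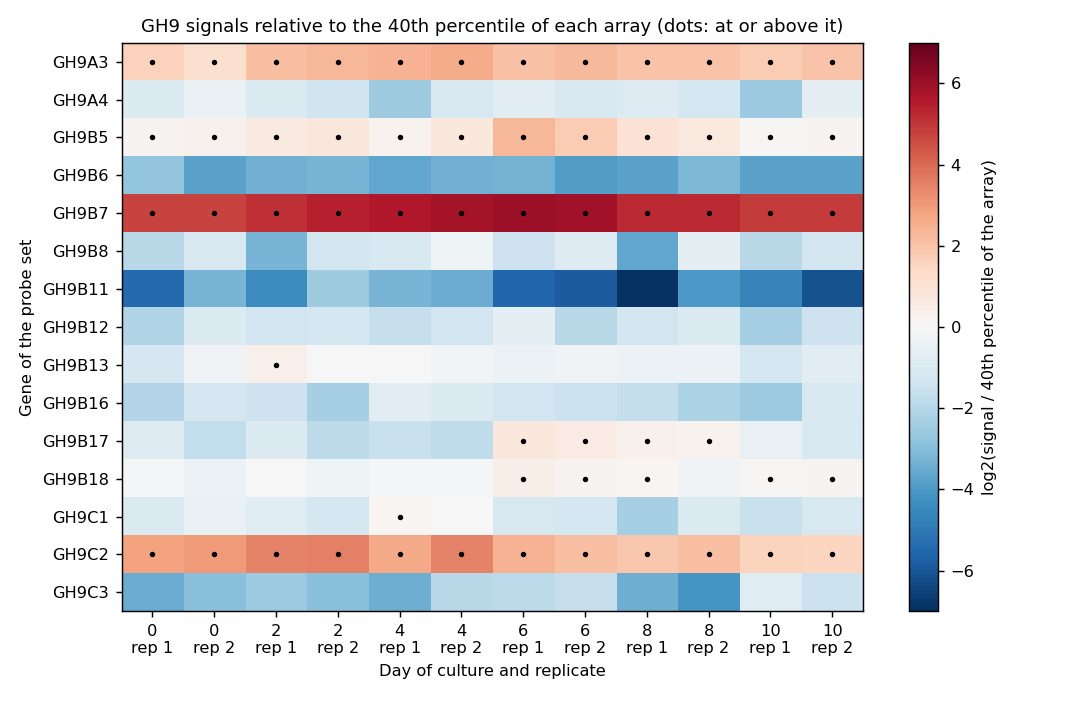
Signal of each of the 15 GH9 probe sets on each of the 12 arrays, as the log2 ratio of the signal to the 40th percentile of that array (colour), with the arrays in order of day along the horizontal axis. Dots mark signals at or above the percentile: 4 rows carry a dot on all 12 arrays, GH9B17 on 4, GH9B18 on 5, GH9B13 and GH9C1 on 1 each, and 7 rows on none. Colours do not rank genes by transcript level, since probe sets differ in response.

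Facts of the whole series were as follows. Array medians of the signal were 33.2 to 40.7, and the arrays of a day correlated over tested probe sets at r between 0.978 and 0.983. Of the 23 tracheary element markers, 4 had a probe set listed in the annotation. They were the wall genes IRX15, IRX15-L and GUT2 (IRX10) and the carboxypeptidase SCPL48. On days 4 to 10 all 4 were called higher than on day 0. Their summed signal was 779 to 918 at day 2, 1651 to 2037 at day 4, 3559 to 4474 at day 6, 2837 to 3029 at day 8 and 2275 to 2284 at day 10, against 610.3 to 683 at day 0. SCPL48 makes up most of that sum, with a mean of 796 at day 2 against 589 at day 0. GUT2 averaged 48.0 at day 2 against 51.8 at day 0, IRX15 and IRX15-L were dim on both days, and 1 of the 4 markers was called at day 2. None of 24 names for procambium, phloem and photosynthetic cells had a probe set listed. Of 8 markers of dividing cells 6 had one. Their summed signal was 269 to 289.6 on day 6, against 528 to 597 on day 0. On day 6, 5 of the 6 were called lower, beside 28% of all probe sets tested, and 0 higher. On day 4, 3 were called lower and 1 higher, beside 25.8% and 35.8%. AUR2 went the other way from the sum, with means of 26.4 at day 0, 45.4 at day 4 and 32.7 at day 6. In such bulk samples, fewer cells of a type and less RNA per cell cannot be told apart, and the part of these shifts in the GH9 changes was not tested.

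Below, a signal is the deposited value on a linear scale, a change is a log2 difference of the later from the earlier day ± its standard error from limma, with n = 2 arrays per day. Array 1 and array 2 of a day are the labels' replicates. A call is an adjusted p under 0.05 over all 15103 probe sets tested. Over the whole course, 5 of the 6 tested members changed by the moderated F test, GH9B18 being the exception (adjusted p = 0.113). This compares with 80.8% of all probe sets tested, so the share is near the background. The highest adjusted p of the 5 was 7.10e-04, for GH9A3. Of the 4 members measured on all 12 arrays, GH9B5 and GH9B7 had their highest mean log2 signal on day 6, GH9A3 on day 4 and GH9C2 on day 2. GH9B17 and GH9B18 also had it on day 6, but the filter admitted them through their high days. Among all probe sets tested, 11.9% had it on day 6, 12.8% on day 4 and 24% on day 2.

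GH9A3, also called KOR3, is a class A enzyme and a relative of KORRIGAN. Its signal was 58.1 and 36.7 at day 0, 84.1 and 85.4 at day 2, 113 and 114 at day 4, 90.5 and 97.7 at day 6, 88.9 and 88.0 at day 8, and 71.6 and 84.2 at day 10. Every later array lay above both day 0 arrays, and the 2 arrays of day 0 were the least alike, 1.58-fold apart. GH9A3 rose on each of the 5 days against day 0, by 0.88 ± 0.18 on day 2, 1.30 ± 0.18 on day 4, 1.03 ± 0.18 on day 6, 0.94 ± 0.18 on day 8 and 0.75 ± 0.18 on day 10. The highest of these adjusted p-values was 0.00327. After day 2 none of the steps between neighbouring days passed. The step from day 2 to day 4 (0.42 ± 0.18, adjusted p = 0.0768) passed with the 4 arrays of those days fitted alone (0.42 ± 0.12, adjusted p = 0.0207). It also passed without day 0 array 1 and without day 0 array 2. Day 8 against day 4 (-0.36) likewise passed without day 0 array 1 and without day 0 array 2. The size of the change against day 0 rests on the pair of day 0 arrays. On day 2 it was 0.54 without day 0 array 2 and 1.21 without day 0 array 1.

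GH9B5 is a class B enzyme. Its signal was 21.7 and 21.4 at day 0, 30.5 and 29.9 at day 2, 24.4 and 32.2 at day 4, 107 and 69.9 at day 6, 44.5 and 35.5 at day 8, and 22.3 and 24.7 at day 10. Both arrays of day 6 stood clear of the other 10, though they differed 1.53-fold from each other. On day 10 the mean was back at 26.6% of the day 6 mean, and on day 0 it was 24.4% of it. GH9B5 rose in the step from day 4 to day 6 (1.62 ± 0.23, adjusted p = 8.21e-04) and fell from day 6 to day 8 (-1.12 ± 0.23, adjusted p = 0.0197). The fall did not pass without day 6 array 1 (-0.81), without day 8 array 1 (-1.29) or without day 8 array 2 (-0.96). Against day 0 it was called on day 6 and on day 8 (0.88 ± 0.23, adjusted p = 0.00534). The day 8 call was lost without day 8 array 1 (0.72). On day 2 (0.49 ± 0.23), day 4 (0.38 ± 0.23) and day 10 (0.12 ± 0.23) it did not pass.

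GH9B7, another secreted class B enzyme, had the smallest standard error of the tested members. Its signal was 504 and 458 at day 0, 681 and 762 at day 2, 996 and 1072 at day 4, 1349 and 1167 at day 6, 816 and 809 at day 8, and 616 and 629 at day 10. From day 0 to day 6 both arrays of each day lay above both arrays of the day before, and from day 6 to day 10 below them. GH9B7 rose on day 2 (0.58 ± 0.09, adjusted p = 1.57e-04) and again from day 2 to day 4 (0.52 ± 0.09, adjusted p = 6.77e-04). The step from day 4 to day 6 just missed the threshold (0.28 ± 0.09, adjusted p = 0.0564), and passed with quantile normalization (0.34, adjusted p = 0.0174), with a 60th percentile filter, with a pseudocount and without day 6 array 2 (0.39). It fell from day 6 to day 8 (-0.63 ± 0.09, adjusted p = 0.00442). On day 10 it was still above day 0 (0.37 ± 0.09, adjusted p = 0.00339), but not with each array centred on its median (0.14, adjusted p = 0.210).

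GH9B17 and GH9B18 are class B genes that lie next to each other on chromosome 4, with GH9B16 on the other side of GH9B17. The signal of GH9B17 was 10.2 and 5.28 at day 0, 10.1 and 4.81 at day 2, 6.97 and 5.62 at day 4, 36.3 and 30.4 at day 6, 27.4 and 26.4 at day 8, and 14.4 and 10.4 at day 10. It was dim on both arrays of days 0, 2, 4 and 10, and above the limit on both arrays of days 6 and 8. Its folds are bounds with the dim arrays raised to the limit, while the adjusted p-values beside them come from the fit on the signals as deposited. It was at least 1.66-fold higher on day 6 than on day 4 (adjusted p = 0.00300), at least 1.48-fold higher on day 8 than on day 0 (adjusted p = 0.00206) and at least 1.56-fold lower on day 10 than on day 6 (adjusted p = 0.0333). The last call was lost without either array of day 6, without either array of day 10 and with no filter. Day 10 against day 0, both dim, gave no bound, so its passing without day 0 array 1 is not read as a change.

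GH9B18 had 17.5 and 13.0 at day 0, 19.3 and 14.1 at day 2, 19.8 and 17.2 at day 4, 28.7 and 22.9 at day 6, 24.3 and 18.3 at day 8, and 22.3 and 24.0 at day 10. Its values stayed close to the limit throughout. It was at least 1.41-fold higher on day 6 than on day 0 (adjusted p = 0.0248), the lone call it gave in the fit as designed. Day 10 against day 0 (adjusted p = 0.0590) passed with raised arrays (adjusted p = 0.0468), without the variance trend (adjusted p = 0.0339) and without day 0 array 1 (adjusted p = 0.0403). Day 6 against day 2 (adjusted p = 0.0638) passed with raised arrays (adjusted p = 0.0136), with a pseudocount (adjusted p = 0.0487), without the trend (adjusted p = 0.0372) and without day 2 array 1 (adjusted p = 0.0446). The day 6 call was lost with arrays centred on their medians, with the 4 arrays of those days fitted alone, without day 0 array 2 (adjusted p = 0.155) and without day 6 array 1 (adjusted p = 0.150). GH9B16, their neighbour, was between 3.52 and 11.8 and dim on every array. The run of GH9B9, GH9B10, GH9B11 and GH9B12 on chromosome 2, also side by side, gave no array above the limit either.

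GH9C2 is a class C enzyme, and has been linked to cellulose crystallinity in Arabidopsis. Its signal was 138 and 136 at day 0, 218 and 201 at day 2, 130.3 and 215 at day 4, 115 and 84.8 at day 6, 81.7 and 93.6 at day 8, and 62.6 and 61.3 at day 10. It was the 1 tested member with its lowest mean on day 10, at 29.6% of its day 2 mean, and its day 4 arrays were 1.65-fold apart. It rose on day 2 (0.61 ± 0.20, adjusted p = 0.0219) and was below day 0 on day 8 (-0.65 ± 0.20, adjusted p = 0.0152) and day 10 (-1.15 ± 0.20, adjusted p = 4.22e-04). The day 2 call was lost without any 1 of the 4 arrays of days 0 and 2 (0.55 to 0.67), and the day 8 call without day 0 array 1 (-0.64) or of day 8 (-0.55). On day 6 it missed the threshold (-0.47 ± 0.20, adjusted p = 0.0610). It passed there as lower with quantile normalization (-0.56, adjusted p = 0.0315) and with median-centred arrays (-0.65, adjusted p = 0.0153), with the 4 arrays fitted alone, without either array of day 4 and without day 6 array 1 (-0.70). Without day 4 array 1, day 4 passed as higher than day 0 (0.64), and without day 4 array 2 it passed as lower than day 2 (-0.69).

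**Figure D2:**
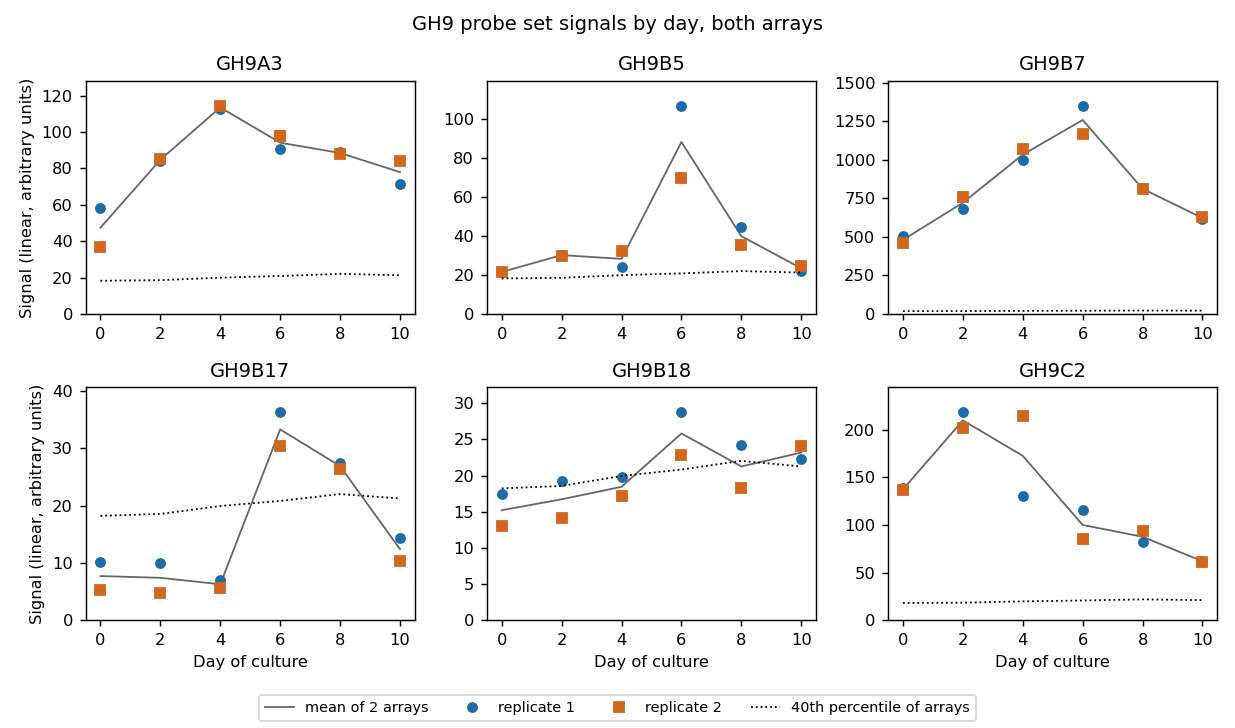
Signal of the 6 tested GH9 probe sets (linear scale, arbitrary units, each panel with its own axis from 0) against the day of culture, with a point for each array, a line through the mean of the 2 arrays of a day, and a dotted line at the mean 40th percentile of the arrays of that day. GH9B5 and GH9B17 stand highest on day 6, GH9B7 climbs to day 6 and declines, and GH9C2 is highest on day 2 and lowest on day 10.

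Against day 0, the count of tested members called was as follows, beside the background of all probe sets. On day 2, 3 of 6 rose (GH9A3, GH9B7 and GH9C2) and none fell, while 35.3% of all probe sets tested rose and 26.1% fell. On day 4, 2 rose (GH9A3 and GH9B7) and none fell, beside 35.8% and 25.8%. On day 6, 5 rose, all but GH9C2, and none fell, beside 34.5% and 28%. The day 6 rise of GH9B17 was at least 1.82-fold, and those of GH9B5 and GH9B7 were 2.00 ± 0.23 and 1.39 ± 0.09 on the log2 scale. On day 8, 4 rose (GH9A3, GH9B5, GH9B7 and GH9B17) and GH9C2 fell, beside 36.2% and 27.3%. On day 10, GH9A3 and GH9B7 were higher and GH9C2 lower, beside 36.4% and 27.6%. GH9B17 and GH9B18 were tested only through their high days, and without them 3 of the 4 members measured on all arrays rose on day 6. The median change of those 4 was 0.60 at day 2, 0.74 at day 4, 1.21 at day 6, 0.82 at day 8 and 0.25 at day 10, where that of all probe sets tested lay between 0.05 and 0.10.

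**Figure D3:**
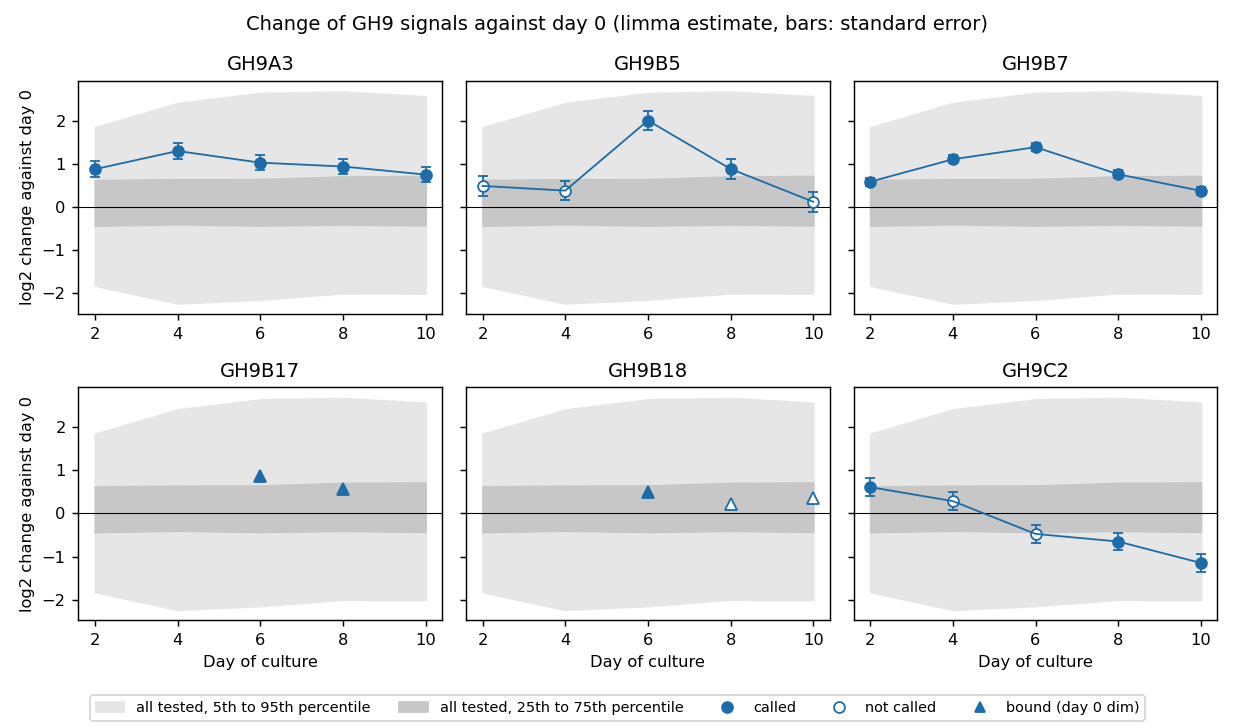
log2 change against day 0 of the 6 tested GH9 probe sets on each later day (circles are limma estimates with standard errors as bars, filled where the adjusted p was under 0.05), over bands that hold the middle of all probe sets tested. GH9B17 and GH9B18 were dim on day 0, so their triangles are lower bounds, and days when they were dim as well are not drawn; on day 6 GH9B5 lies at 2.00 and GH9C2 at -0.47.

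The scaling of the arrays bears on these directions. After centring of each array on the median, the median change of all probe sets tested moved to -0.02 on day 4, -0.13 on day 6, -0.17 on day 8 and -0.16 on day 10, and to -0.13 for day 6 against day 2 and -0.11 for day 8 against day 4. Changes here are relative to the deposited scaling. Among all calls the share of higher ones was 42.8% with this centring and 55.2% as deposited at day 6, 40% and 57.1% at day 8, and 41.4% and 56.9% at day 10. It was 38.4% and 49.3% for day 6 against day 4, 28.9% and 53.3% for day 8 against day 6, and 50% and 27.3% for day 10 against day 8. It was 31.5% and 52.9% for day 8 against day 4 and 42.7% and 55.5% for day 10 against day 6. The signs of GH9A3, GH9B7 and GH9C2 against day 0 held on all 5 days under both other scalings. GH9B5 on day 10 was at -0.11 with centring and -0.12 with quantile normalization, beside 0.12 as deposited, and passed under none of them.

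Between neighbouring days, fewer probe sets moved in the later steps. From day 2 to day 4, 1 member rose (GH9B7) and none fell, beside 22.3% of all probe sets rising and 22.5% falling. From day 4 to day 6, GH9B5 and GH9B17 rose and GH9C2 fell (-0.76 ± 0.20, adjusted p = 0.0276), beside 7.71% of all probe sets rising and 7.94% falling. Of the 4 members measured on all arrays, 1 rose and 1 fell. Of all probe sets tested, 98.3% had a change no higher than that of GH9B5 in this step. The same share was 81.6% for GH9B7, 18.7% for GH9A3 and 2.89% for GH9C2. The fall of GH9C2 in this step did not pass without day 4 array 2 (-0.40), without day 6 array 2 (-0.54), without the variance trend or with the 4 arrays fitted alone. From day 6 to day 8 none rose and 2 fell (GH9B5 and GH9B7), beside 2.98% rising and 2.61% falling. From day 8 to day 10 no member was called by limma, beside 0.0199% rising and 0.053% falling. At an unadjusted p under 0.05, 4 members were lower in this last step, beside 5.19% of all probe sets tested, namely GH9B5 (-0.76 ± 0.23), GH9B7 (-0.38 ± 0.09), GH9B17 (at least 1.27-fold) and GH9C2 (-0.50 ± 0.20). GH9B17 was tested only through its high days 6 and 8. Of the 4 members measured on all arrays, 3 were lower at this unadjusted level. This looser level was read for this step alone, where no member passed the adjusted one, so these falls are not calls.

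Each of these steps crosses a change of labelled temperature, as do days 2, 6 and 10 against day 0. Days of the same labelled temperature were therefore compared too. For day 6 against day 2, both at 27 C, 3 members rose and 1 fell, beside 25.6% and 27.7% of all probe sets tested, and of the 4 members measured on all arrays 2 rose and 1 fell. GH9B5 had 107 and 69.9 on day 6, against 30.5 and 29.9 on day 2 (1.51 ± 0.23, adjusted p = 1.76e-04), and GH9B7 rose by 0.80 ± 0.09 (adjusted p = 1.91e-05). GH9B17 was at least 1.79-fold higher, and GH9C2 fell (-1.08 ± 0.20, adjusted p = 8.70e-04). For day 10 against day 6, also both at 27 C, none rose and 4 fell, GH9B5, GH9B7, GH9B17 and GH9C2, beside 10.7% rising and 8.59% falling. Of the 4 measured on all arrays 3 fell. Here GH9B5 changed by -1.88 ± 0.23 (adjusted p = 3.14e-04) and GH9B7 by -1.01 ± 0.09 (adjusted p = 5.77e-05). GH9C2 changed by -0.67 ± 0.20 (adjusted p = 0.0393), which was lost without day 6 array 1 (-0.45), without either array of day 2 or of day 10, without the variance trend and with no filter.

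For day 8 against day 4, both at 22 C, GH9B17 rose and GH9B7 and GH9C2 fell, beside 12.2% of all probe sets rising and 10.8% falling. Of the 4 measured on all arrays none rose and 2 fell. GH9B17 had 27.4 and 26.4 on day 8, against 6.97 and 5.62 on day 4, at least 1.35-fold higher (adjusted p = 0.00435). GH9C2 changed by -0.94 ± 0.20 (adjusted p = 0.00729) and did not pass without day 4 array 2 (-0.58) or day 8 array 1 (-0.84). GH9B7 changed by -0.35 ± 0.09 (adjusted p = 0.0172), and did not pass with quantile normalization (-0.23), without the variance trend, without day 4 array 2 (-0.29) or without either array of day 8 (-0.34 and -0.35). GH9B5 was 0.50 ± 0.23 higher and did not pass (adjusted p = 0.140). Days 4 and 8 against day 0 are also comparisons within 22 C. Differences between members in how they changed were not tested.

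**Figure D4:**
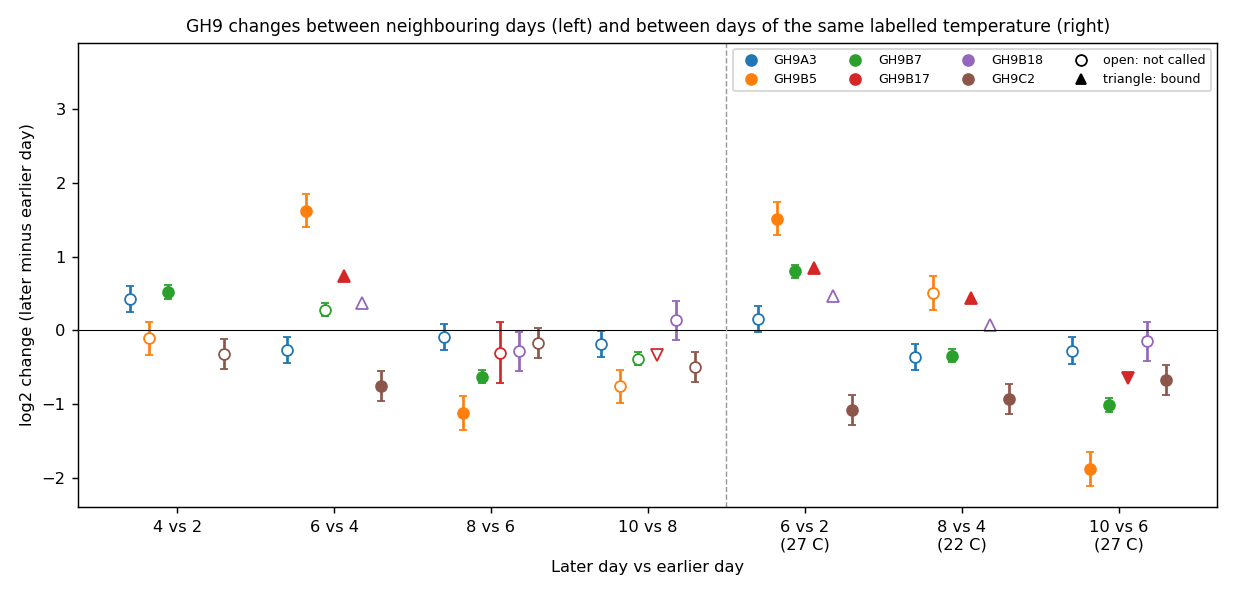
log2 change of the 6 tested GH9 probe sets between neighbouring days (left of the dashed line) and between days that share a labelled temperature (right of it), as later minus earlier day, with circles for limma estimates, standard errors as bars and filled symbols for an adjusted p under 0.05. Triangles are bounds where 1 of the days was dim, and comparisons of dim days are not drawn; GH9B5 lies at 1.62 for day 6 against day 4, and GH9C2 is filled and below 0 there and in all 3 comparisons on the right.

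The course of each tested member was set against that of 6176 probe sets outside GH9, each given to 1 gene and above the limit on all 12 arrays. Probe sets with several genes or none listed could not appear. Likeness was Pearson's r of the log2 signals over the 12 arrays, which share 6 days, and it is a description with no test. The genes most like GH9B5 were AT1G17620 (r = 0.92), AT2G26800 (r = 0.91) and AT5G08750 (r = 0.90). AT5G08750 averaged 257 on day 6, against 55.4 on day 0. The same means were 315 and 88.9 for AT1G17620, and 359 and 147 for AT2G26800. A high r does not give the size of a change. Those most like GH9B7 were AT2G41770 (r = 0.96), AT5G37310 (r = 0.95) and PRA1.B4 (r = 0.95). PRA1.B4 averaged 875 on day 6, against 309.8 on day 0.

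For GH9B17 they were AT3G14360 (r = 0.92), AT2G26780 (r = 0.91) and AT5G40470 (r = 0.89), and for GH9B18 AT5G18370 (r = 0.89), AT3G15740 (r = 0.89) and GUT1 (r = 0.89). The r of GH9B17 and GH9B18 rests in part on dim arrays. AT3G14360 averaged 242.5 on day 6, against 49.0 on day 0. AT2G26780 averaged 226 on day 6, against 150 on day 0, and AT5G40470 averaged 275, against 35.2. For GH9A3 they were AT3G11745 (r = 0.96), AT1G10350 (r = 0.96) and AT4G14360 (r = 0.95). For GH9C2 they were AT2G27730 (r = 0.94), AT3G05100 (r = 0.94) and AT1G63220 (r = 0.94). AT2G27730 averaged 155.5 on day 10, against 309.4 on day 2.

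Of 39 genes listed for the cellulose synthesis machinery, the annotation gave a probe set to 1. This was COB, a membrane-anchored protein that guides how cellulose is laid down in growing cells. The annotation lists no gene for 8730 probe sets, so the array may hold others of the 39. COB averaged 247 on day 6, against 292 on day 0 (-0.24 ± 0.10, adjusted p = 0.0429), and it was called on day 10 too (-0.25). A further list of genes, taken by family symbol (XTH, BGAL and BGLU) and not by known substrate, had 30 probe sets, of which 14 were tested. On day 6 against day 0, 5 of the 14 rose and 4 fell, a share near the 34.5% and 28% of all probe sets tested. The largest changes were those of XTH19, a xyloglucan endotransglucosylase, at least 17.2-fold lower, the beta-glucosidase-family gene BGLU41, at least 8.19-fold higher, and XTH18, at least 3.27-fold lower. Of the 14, 2 were higher and 4 lower at day 2, 6 and 6 at day 4, 6 and 4 at day 8, and 6 and 5 at day 10, against the shares of all probe sets given above.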

How the data were processed

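The table deposited by the authors gives 1 linear signal intensity per probe set and array, produced by MAS5 according to the submitters' processing notes (version not given in the sources used here). Array data have no read depth, so the number of arrays limits the precision. After removal of 64 control probe sets from 22810, the platform annotation gave 1 gene to 13513, several to 503 and none listed to 8730.

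Probe sets were tested if some day had both arrays at or above the 40th percentile of the array (15103 tested, 7643 not). limma 3.58.1 (R 4.3.3) was applied to log2 signals, using 1 mean per day over 12 arrays, a variance trend and no block (6 residual and a median of 5.19 prior degrees of freedom). The 12 comparisons between days and the moderated F were adjusted by Benjamini-Hochberg over all tested probe sets. The code was tested on simulated data. Where both arrays of a day were dim, each was raised to its 40th percentile to give a bound.

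All members were named, with the 3 genes of highest r for each tested one and, per gene list, the 3 largest called changes on day 6. The members and lists were chosen with earlier results of these data known. Alternatives were quantile normalization, centring arrays on medians, a 60th percentile filter or none, a pseudocount of 8.50, raising dim arrays, dropping the trend, a replicate block, fitting 4 arrays alone and omitting each array. Promoter motifs were not searched.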

Additional observations from a re-analysis of the deposited data

How the results depend on the processing

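Of 624 member changes recomputed under the 9 alternatives that keep all arrays or fit only those compared, 600 kept their direction and side of the threshold, 10 lost the call, 14 gained it and none reversed while called. Leaving out 1 array, 823 of 864 held, 28 lost the call and 13 gained it. The counts of members moved by over 1.5 times in several settings, some of which fit fewer arrays or probe sets, and the cause was not tested. For day 6 against day 0, 5 rose and 0 fell; the number lower was 1 with quantile normalization, with centring and with the 4 arrays alone, and with the 60th percentile filter, which drops both dim members, 3 rose. For day 10 against day 0 the number higher was 1 with centring. For day 4 against day 2 it was 2 with the 4 arrays alone. For day 6 against day 4 the number lower was 0 without the variance trend and with the 4 arrays alone. For day 8 against day 4 it was 1 with quantile normalization and without the trend, and the number higher was 0 with the 60th percentile filter. For day 10 against day 6 the number lower was 2 with no filter.

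Without 1 array each, members higher than on day 0 numbered 2 to 3 at day 2, 2 to 3 at day 4, 4 to 5 at day 6, 3 to 4 at day 8 and 2 to 4 at day 10, and members lower 0 to 1 at days 6 and 8. For day 4 against day 2 they were 1 to 2 higher and 0 to 1 lower, for day 6 against day 4 2 to 3 and 0 to 1, for day 8 against day 6 0 and 1 to 2, for day 8 against day 4 1 and 0 to 3, and for day 10 against day 6 0 and 2 to 4. Where a day keeps 1 array, it is assumed to vary like the others.

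The labels do not say what a replicate number shares. Over all probe sets tested, the deviations of same-numbered arrays correlated between days at -0.07 to 0.13 (4 of 15 pairs above 0.1), so the numbers were not taken to pair arrays. Yet GH9B17 was higher on array 1 than on array 2 on every day, and GH9B18 on every day but day 10. With a replicate block their standard errors were 0.33 and 0.23, beside 0.42 and 0.27 without it. With the replicate block no member count moved by over 1.5 times: the day 6 against day 0 count was 5 higher and 0 lower as without it, and GH9B18 was also called on day 10 against day 0 (adjusted p = 0.0331) and on day 6 against day 2 (adjusted p = 0.0360). Signals near the 40th percentile limit what can be said of GH9B17 and GH9B18, and of the size of the GH9B5 changes. Of the 15 members, 9 gave no test.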
